A study of Mus musculus with 6 samples.

Results

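The 10 genes described here are markers of the endothelial cells that line the blood vessels of the liver. They are Stab1, Stab2, Lyve1, Kdr, Flt4, Clec4g, Oit3, Pecam1, Cdh5 and Tek, chosen by name from knowledge of this cell type, and they were found by symbol among the 52550 genes listed. RNA was sequenced from GFP-positive cells of embryonic livers of Sox9-GFP mice on the CD-1 background, whose green fluorescent protein reports expression of SOX9, a transcription factor of bile duct cells. Livers were pooled and dissociated with collagenase and dispase, blood cells were removed with magnetic beads against lymphoid, myeloid and erythroid antigens, and GFP-positive cells were sorted. Each stage has 3 libraries, which the labels letter A, B and C, all of the same genotype and with no treatment. The stages are E16.5 and E18.5 in the paper and embryonic days 16 and 18 in the sample labels. Nothing states that the replicates came from separate litters or days, so p-values measure only the spread between these libraries.

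Liver sinusoids are lined by endothelial cells of a special kind, which have open pores, little basement membrane and a set of scavenger receptors that remove waste molecules from the blood. These cells form early in the fetal liver, when the sinusoids also house blood formation, and they acquire their scavenger receptors as the liver grows. Vessels of every organ share another set of endothelial genes, which hold the cells together at their junctions and receive the growth signals VEGF and angiopoietin. Developing bile ducts lie next to the endothelium of the portal vein, separated from it by mesenchyme. The sort was designed for biliary cells, so the levels below are those of endothelial genes in RNA of a biliary sort. In bulk RNA, fewer cells of a type and less RNA per cell cannot be told apart.

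Each library came from cells labelled as cholangiocytes, the epithelial cells of bile ducts. Of 8 cholangiocyte marker genes, 7 had at least 1 TPM (a level scaled by gene length and by a library total common to all libraries) in every library. The sum of the 8 was 689 to 2388 TPM at E16.5 and 7823 to 13635 TPM at E18.5. Spp1 made up the larger part of it in every library, with 469 to 1767 TPM at E16.5 and 6629 to 12121 TPM at E18.5. Of its exon sequence, 18.75% is shared with another gene on the same strand. All 8 had a higher mean at E18.5. Hepatoblasts are the epithelial precursors of hepatocytes and cholangiocytes, and the 8 hepatoblast marker genes summed to 173998 to 221847 TPM at E16.5 and to 40472 to 99586 TPM at E18.5. The libraries held 13093937 to 26206374 recovered reads, and every E18.5 library was shallower than every E16.5 library. Within E16.5, replicate C stood apart from the labelled cell type, as all 8 cholangiocyte markers were lowest in it. For each of the 10 genes the range over the fits that leave out 1 library is given.

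All 10 endothelial genes were present in all 6 libraries, from 28 reads for Clec4g in replicate C of E18.5 to 4010 reads for Stab1 in replicate A of E16.5. A count of 3 reads corresponded to 0.0340 to 0.300 TPM, depending on the gene and library, and every value lay above that limit. The sum of the 10 genes was 234 (replicate A), 152 (B) and 139 (C) TPM at E16.5 and, in the same order, 138, 266 and 251 TPM at E18.5. The lowest libraries of the stages thus had nearly the same sum, and the stages overlapped.

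No gene of the 10 passed the test for a difference between the stages. The test was limma on log2(TPM + 1), with Benjamini-Hochberg adjustment over the 22452 genes whose mean reached 1 TPM and a threshold of 0.05 on the adjusted p. The log2 fold change is the E18.5 minus the E16.5 mean on this scale. Of all genes tested, 31.2% passed, 26.0% higher and 5.22% lower at E18.5. At an unadjusted p under 0.05 the count in this fit was also 0 of 10. At the adjusted threshold it was 0 of 10 with limma voom on recovered reads and in each of the 6 fits without a library. For 0 of the 10 genes did the TPM of the stages lie apart, against 53.3% of all genes tested. The median log2 fold change was 0.26 over the 10 genes and 0.42 over all genes tested, and 7 of the 10 had a positive value. Their median standard error was 0.36, against 0.24 for all genes tested, a wider spread between libraries than that of the typical gene.

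**Figure D1:**
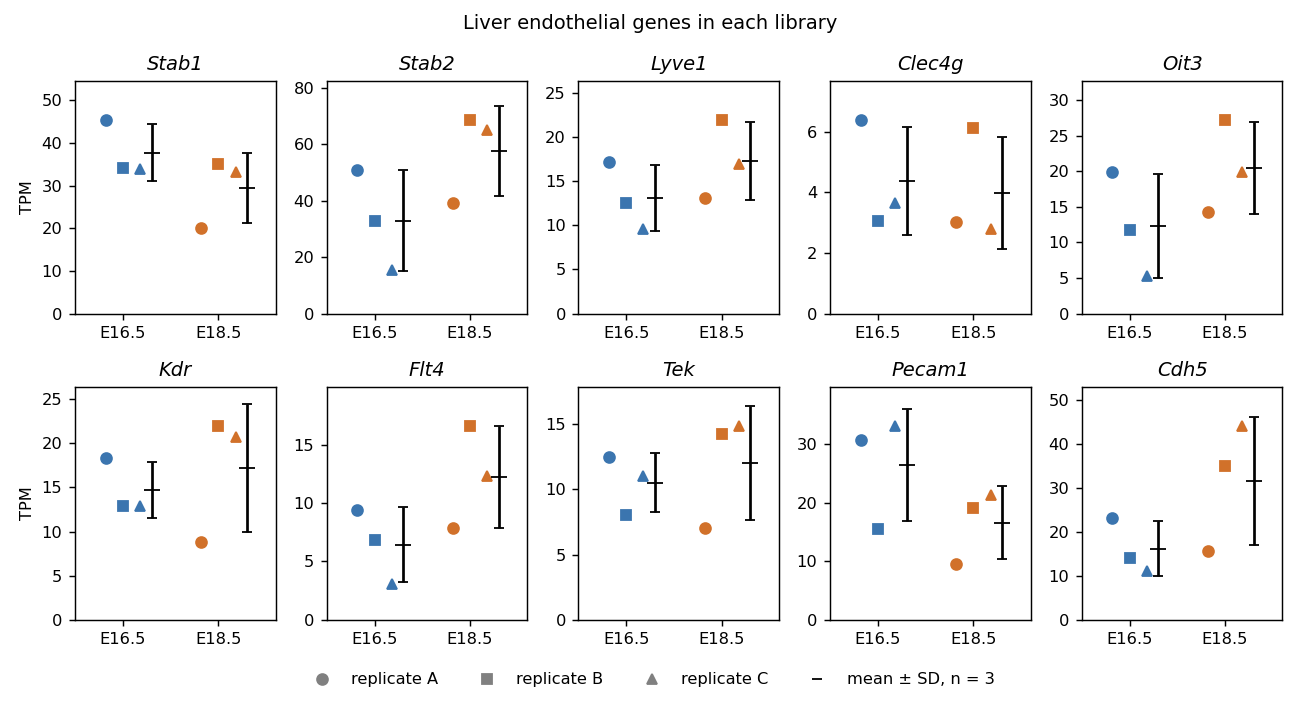
TPM of each of the 10 endothelial genes (vertical axes, each starting at 0) in the 3 E16.5 and 3 E18.5 libraries, with marker shapes for replicates A, B and C and the mean ± SD of n = 3 beside them. The stages overlap in all 10 panels, and replicate A of E18.5 is the lowest library of its stage in all but the Clec4g panel.

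Stab1, Stab2, Lyve1, Clec4g and Oit3 are known as genes of sinusoidal endothelium, several of them receptors that take up molecules from the blood. Stab1 (stabilin-1) and Stab2 (stabilin-2, the hyaluronan scavenger receptor) are related, very large receptors. Stab1 (ENSMUSG00000042286.13) lies on the reverse strand of chromosome 14 from 31139013 to 31168641 in GRCm38, with 10288 bp of exon sequence. Stab2 (ENSMUSG00000035459.17) lies on the reverse strand of chromosome 10 from 86841198 to 87008025, with 8757 bp. The 250 bases before the RefSeq start of both genes are shown because these relatives had unlike patterns over the libraries. Both are from GRCm38.p6, reverse strand, written 5′ to 3′ at chr14:31168642-31168891 and chr10:87007943-87008192, and capitals mark matches to AGGAAG, a form of the ETS factor motif, on either strand.
Stab1: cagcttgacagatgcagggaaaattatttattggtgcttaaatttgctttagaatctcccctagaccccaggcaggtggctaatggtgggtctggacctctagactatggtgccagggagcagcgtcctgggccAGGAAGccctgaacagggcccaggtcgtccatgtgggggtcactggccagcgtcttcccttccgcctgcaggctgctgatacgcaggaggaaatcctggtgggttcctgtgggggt
Stab2: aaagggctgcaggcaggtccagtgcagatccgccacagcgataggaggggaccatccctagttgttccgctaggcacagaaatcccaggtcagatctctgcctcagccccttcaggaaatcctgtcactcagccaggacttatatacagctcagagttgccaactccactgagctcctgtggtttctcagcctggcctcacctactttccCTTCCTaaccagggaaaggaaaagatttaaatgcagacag
ETS factors are transcription factors used by endothelial and many other cells. The match began 116 bases before the RefSeq start of Stab1 and 40 bases before that of Stab2, where it lay on the other strand. The Stab2 gene as placed above reaches 87008025, into its window, so that match lies within the placed gene. RefSeq windows were at hand for 6 of the 10 genes, and 3 of the 6 held these letters, against 29.5% of 32851 windows of the same length. The letters AGATAA of the GATA factor motif were in none of the 6 windows and in 9.99% of all windows. These matches are letters in a window and say nothing of binding.

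Values are given below in the order of replicates A, B and C. Stab1 had 45.5, 34.1 and 33.8 TPM at E16.5 and 20.0, 35.2 and 33.2 TPM at E18.5. Replicate A was the highest library of the earlier stage and the lowest of the later one, while the remaining libraries lay close together, and the stages overlapped. The log2 fold change was -0.37 (standard error 0.24, adjusted p = 0.247, limma), and with 1 library left out it lay between -0.52 (replicate B of E18.5) and -0.13 (replicate A of E18.5). Stab2 had 50.9, 32.7 and 15.3 TPM at E16.5 and 39.2, 68.7 and 65.1 TPM at E18.5. Its lowest value was in replicate C of E16.5, and the highest E16.5 library overlapped with the lowest E18.5 library. The log2 fold change was 0.90 with a 95% interval from -0.10 to 1.90 (limma adjusted p = 0.137). With 1 library left out it lay between 0.45 (replicate C of E16.5) and 1.28 (replicate A of E16.5).

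Lyve1 (ENSMUSG00000030787.4, chromosome 7) encodes a hyaluronan receptor of sinusoidal and lymphatic endothelium that some macrophages also carry. It had 17.1, 12.5 and 9.62 TPM at E16.5 and 13.1, 21.9 and 16.9 TPM at E18.5, with a log2 fold change of 0.38 and a 95% interval that included 0 (limma adjusted p = 0.275). That value was 0.20 without replicate C of E16.5, 0.21 without replicate B of E18.5 and 0.58 at most, without replicate A of E16.5. Oit3 (ENSMUSG00000009654.4, chromosome 10) encodes a secreted zona pellucida domain protein of the liver. Its levels were 19.8, 11.7 and 5.31 TPM at E16.5 and 14.3, 27.2 and 20.0 TPM at E18.5. Like Stab2, Oit3 was lowest in replicate C of E16.5, and it had a 3.74-fold range within that stage, the widest of the 10 genes at either stage. The log2 fold change of Oit3 was 0.81 (standard error 0.44, limma adjusted p = 0.185), 0.36 without that library and 1.22 without replicate A of E16.5. Clec4g (ENSMUSG00000074491.9, chromosome 8) encodes LSECtin, a C-type lectin named after liver sinusoidal endothelium. It was the lowest of the 10 genes at both stages, with 6.39, 3.07 and 3.67 TPM at E16.5 and 3.03, 6.12 and 2.80 TPM at E18.5. Each stage had a single high library for Clec4g, replicate A at E16.5 and replicate B at E18.5, and its log2 fold change was -0.12 with a 95% interval from -0.95 to 0.70, at 28 to 135 reads per library, and its sign depended on the library left out (-0.41 to 0.13).

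Kdr, Flt4 and Tek encode receptor tyrosine kinases of the endothelium. Kdr (VEGF receptor 2, ENSMUSG00000062960.10, chromosome 5) drives the growth of vessels in response to VEGF-A. It had 18.4, 12.9 and 12.8 TPM at E16.5 and 8.87, 22.0 and 20.7 TPM at E18.5. The lowest and the highest library were both E18.5 libraries, and the log2 fold change was 0.13 (standard error 0.34, limma adjusted p = 0.780). With 1 library left out it lay between -0.08 (replicate B of E18.5) and 0.52 (replicate A of E18.5). Flt4 (VEGF receptor 3, ENSMUSG00000020357.3, chromosome 11) binds VEGF-C and VEGF-D and serves lymphatic vessels and the sinusoids. Its levels of 9.45, 6.81 and 3.05 TPM at E16.5 and 7.87, 16.6 and 12.4 TPM at E18.5 ordered the libraries as those of Stab2 and Oit3 did. Flt4 had the smallest adjusted p of the 10 genes, 0.126 in limma, with a log2 fold change of 0.89 and a 95% interval from -0.06 to 1.84. It was 0.50 without replicate C of E16.5 and 1.18 without replicate A of that stage. Tek (the angiopoietin receptor Tie2, ENSMUSG00000006386.15, chromosome 4) keeps vessels stable and is also expressed by early blood progenitors. It had 12.5, 8.03 and 11.0 TPM at E16.5 and 7.01, 14.2 and 14.8 TPM at E18.5, with a log2 fold change of 0.13 and a 95% interval from -0.59 to 0.86, and between -0.04 and 0.45 with 1 library left out.

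Pecam1 and Cdh5 encode adhesion proteins of endothelial junctions. Pecam1 (CD31, ENSMUSG00000020717.19, chromosome 11) is also carried by platelets, megakaryocytes and leukocytes, whereas Cdh5 (VE-cadherin, ENSMUSG00000031871.9, chromosome 8) is largely limited to endothelium. Pecam1 had 30.8, 15.5 and 33.2 TPM at E16.5 and 9.48, 19.1 and 21.4 TPM at E18.5. Pecam1 was the 1 gene of the 10 that was highest in replicate C of E16.5. Its log2 fold change was -0.64 (standard error 0.38, limma adjusted p = 0.213). Leaving out replicate A of E18.5 brought it to -0.31, and leaving out replicate B of E16.5 to -0.98. Cdh5 had 23.2, 14.1 and 11.2 TPM at E16.5 and 15.5, 34.9 and 44.1 TPM at E18.5. Its lowest library was thus replicate C of E16.5, and its highest was the same letter of the later stage. For Cdh5 the log2 fold change was 0.86 (standard error 0.41, limma adjusted p = 0.141), 0.57 without replicate C of E18.5 and 1.29 without replicate A of E18.5.

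With exact two-sided permutation tests on TPM, p ranged from 0.2 for Stab2, Oit3, Flt4 and Cdh5 to 0.8 for Kdr. With 3 libraries against 3 the smallest p this test can give is 0.1.

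By mean level per length at E16.5, Stab1 was highest with 37.8 ± 6.64 TPM (SD, n = 3), followed by Stab2 with 33.0 ± 17.8 and Pecam1 with 26.5 ± 9.56. Then came Cdh5 (16.2 ± 6.29 TPM), Kdr (14.7 ± 3.17 TPM), Lyve1 (13.1 ± 3.77 TPM), Oit3 (12.3 ± 7.28 TPM), Tek (10.5 ± 2.28 TPM), Flt4 (6.43 ± 3.22 TPM) and Clec4g (4.38 ± 1.77 TPM). At E18.5 Stab2 was highest with 57.7 ± 16.1 TPM (SD, n = 3), followed by Cdh5 with 31.5 ± 14.6 and Stab1 with 29.5 ± 8.25. Oit3 had 20.5 ± 6.47 TPM and Lyve1 17.3 ± 4.44 TPM. Kdr had 17.2 ± 7.23 TPM, Pecam1 16.6 ± 6.30 TPM, Flt4 12.3 ± 4.37 TPM, Tek 12.0 ± 4.35 TPM and Clec4g 3.98 ± 1.85 TPM. The ranges of neighbouring genes in these orders overlapped throughout, with the exception of Tek and Clec4g at E18.5. Among 21819 protein-coding genes listed, Stab1 at E16.5 stood above 83.6% and Stab2 at E18.5 above 87.2%, while Clec4g stood above 49.0% and 45.3%.

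**Figure D2:**
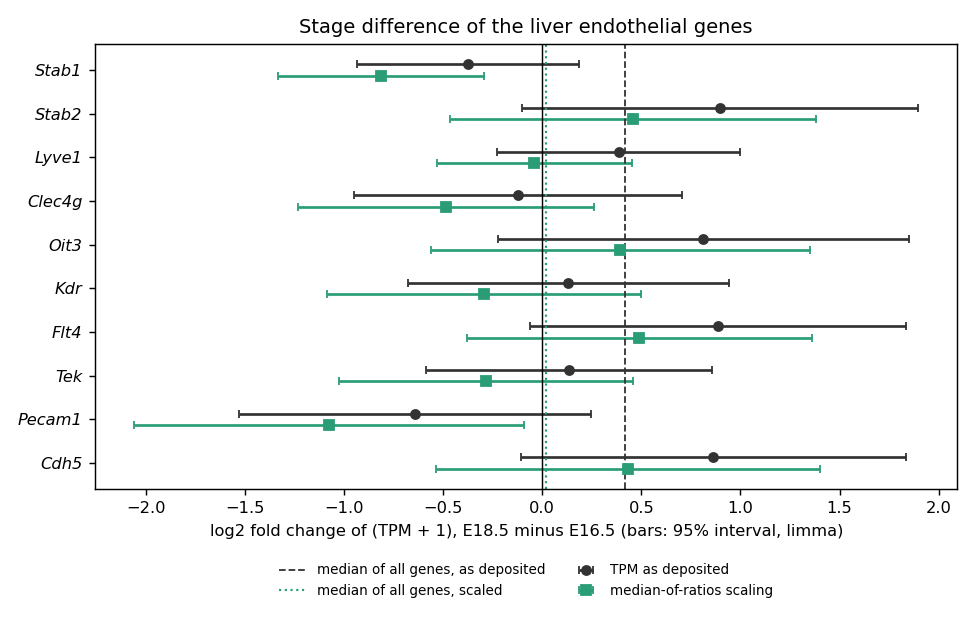
Log2 fold change of (TPM + 1), E18.5 minus E16.5, of the 10 genes with 95% intervals from limma, for the TPM as deposited (circles) and after median-of-ratios scaling (squares), with the median of all genes tested as broken lines at 0.42 and 0.02. All 10 intervals for the deposited TPM include 0, and after scaling those of Stab1 and Pecam1 lie below 0.

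TPM shares a fixed total among all genes, so the scaling between libraries bears on these values. Median-of-ratios scaling, which sets the typical gene equal between libraries, moved the median of all genes tested from 0.42 to 0.02. After it, 6 of the 10 genes had a negative log2 fold change and 4 a positive one, with a median of -0.16. Stab1 alone then passed, at a log2 fold change of -0.82 (standard error 0.22, limma adjusted p = 0.0487), against 17.2% of all genes tested. Its scaled level was 49.3, 38.5 and 44.3 TPM at E16.5 and 17.4, 27.8 and 30.1 TPM at E18.5, and it was the only one of the 10 genes whose stages lay apart, against 42.1% of all genes tested. Over the 14 alternatives, the adjusted p of Stab1 ranged from 0.0487 to 0.623. Kdr, Tek and Lyve1 changed sign with this scaling, to -0.29, -0.28 and -0.04. Relative to the median of all genes, Stab2, Flt4, Cdh5 and Oit3 had higher values and Pecam1, Stab1, Clec4g, Tek, Kdr and Lyve1 lower ones under both scalings.

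The share of each gene in the summed TPM of the 10 does not depend on the scaling of a library. These shares, and the ratios below, were examined after the values had been seen and are given with no test. Stab1 made up 19.4%, 22.5% and 24.3% of the sum in replicates A, B and C of E16.5 and 14.5%, 13.2% and 13.2% at E18.5. Stab2 made up 21.7%, 21.6% and 11.0% at E16.5 and 28.3%, 25.8% and 25.9% at E18.5. The ratio of Stab2 to Stab1 was accordingly 1.12, 0.960 and 0.454 at E16.5, and 1.96, 1.95 and 1.96 at E18.5. The 3 E18.5 libraries thus had nearly the same ratio, although their highest level was 1.76-fold the lowest for Stab1 and 1.75-fold for Stab2. For both genes replicate A was the low library, and B and C lay close together. Pecam1 made up 13.2%, 10.3% and 23.9% of the sum at E16.5 and 6.85%, 7.17% and 8.49% at E18.5. Cdh5 had 9.92%, 9.30% and 8.03% at E16.5 and 11.2%, 13.1% and 17.5% at E18.5. The ratio of Pecam1 to Cdh5, both junction genes, was 1.33, 1.10 and 2.97 at E16.5 and 0.610, 0.546 and 0.485 at E18.5. For the VEGF receptors, the ratio of Flt4 to Kdr was 0.514, 0.526 and 0.237 at E16.5 and 0.887, 0.756 and 0.596 at E18.5. These 3 ratios did not overlap between the stages. Nor did the shares of Stab1, Stab2, Pecam1, Cdh5 and Flt4 (2.19% to 4.49% and then 4.92% to 6.25% for Flt4), whereas those of Lyve1, Clec4g, Oit3, Kdr and Tek did. Each ratio pairs genes of unlike log2 fold change (0.90 and -0.37, -0.64 and 0.86, 0.89 and 0.13), a choice that favours separation. Other pairs of the 10 genes were not computed, nor was how often ratios or shares of other genes lie apart. The 53.3% of all genes tested whose TPM lay apart is for single genes, an unlike measure. The shares of a library have a fixed total, so a larger share of 1 gene lowers those of others.

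**Figure D3:**
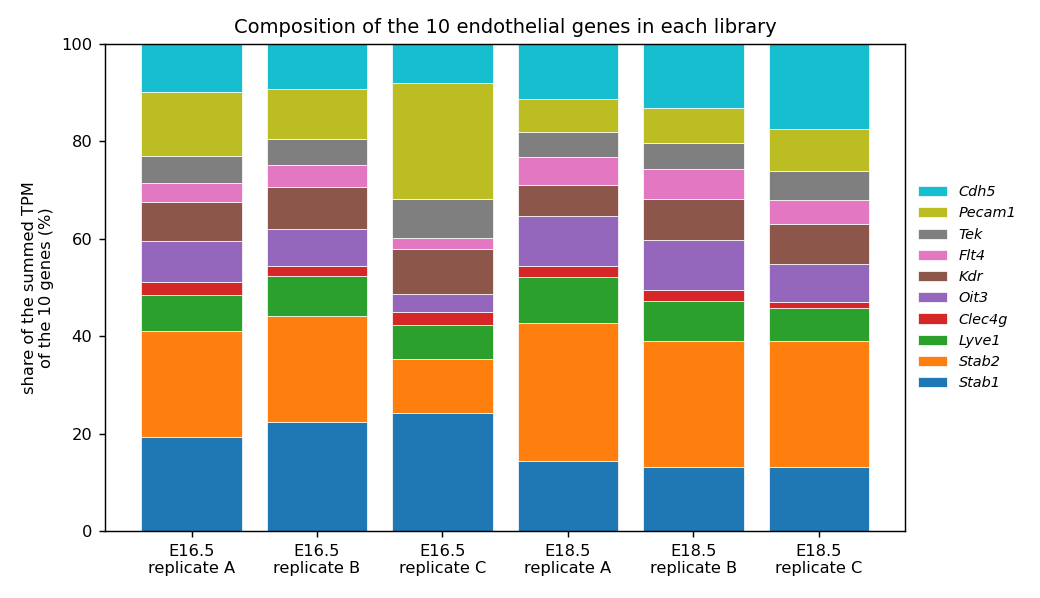
Share of each gene (colours) in the summed TPM of the 10 genes in each library, in percent, stacked to 100. The Stab2 segment is 25.8% to 28.3% in the E18.5 libraries and 11.0% to 21.7% in the E16.5 libraries, and the Pecam1 segment is widest in replicate C of E16.5 (23.9%).

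The libraries of a stage were ordered alike by most of the genes. At E16.5, 7 of the 10 genes had the order A, B, C from high to low, and replicate A was highest for 9. At E18.5, replicate A was lowest for 9 of the 10, replicate B was highest for 7 and replicate C for Tek, Pecam1 and Cdh5. That low library was not particular to the 10 genes. It was also lowest for all 19 other pan-endothelial, 10 megakaryocyte and 8 mesenchymal genes, and for 9 of 12 sinusoidal and 7 of 10 macrophage genes. Of the cholangiocyte genes 1 of 8 and of the hepatoblast genes 0 of 8 were lowest in it. The share of all genes tested with these orders was not computed. As a description over the 6 libraries, which also differ in depth and makeup, the log2(TPM + 1) of Lyve1 followed the mean of the other 9 genes most closely (Pearson r = 0.93, n = 6), followed by Kdr (0.89) and Cdh5 (0.87). Pecam1 followed it least (0.11), and Stab1 (0.48) and Clec4g (0.54) were also low. Among 11374 other protein-coding genes whose mean reached 5 TPM, those most like the mean pattern of the 10 included Gm13199, Ccnyl1, Acsf3 and Gm4353, with r from 0.98 to 0.99. None of these 4 was on an endothelial list, and 60 genes had r over 0.9, which is a description of 6 libraries only.

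Of 19 other genes expressed throughout endothelium, 3 rose and 1 fell between the stages in limma, a share of the list no larger than the 26.0% of all genes that rose and near the 5.22% that fell. The median of the list was 0.67 on the log2 scale, 0.30 after median-of-ratios scaling and 0.39 to 0.96 with 1 library left out. Ptprb, a phosphatase that acts on the Tek receptor, rose with a log2 fold change of 1.33 (from 9.46, 4.99 and 4.23 TPM to 10.3, 19.6 and 21.3 TPM, adjusted p = 0.0323). The others that rose were Egfl7 (0.68), a secreted vessel protein, and Emcn (1.10), the endothelial sialomucin. Of the exon sequence of Egfl7, 9.41% is shared with other genes on the same strand, and how reads there were counted is not given. Myct1 fell by 2.02 on the log2 scale, from 13.6, 9.01 and 22.1 TPM to 1.23, 3.44 and 4.07 TPM (limma adjusted p = 0.0167). Tie1, the partner receptor of Tek, had 29.1, 16.8 and 36.2 TPM at E16.5 and 7.52, 14.6 and 15.1 TPM at E18.5, just short of the threshold (limma adjusted p = 0.0534). Esam, an adhesion gene of endothelium and platelets, likewise had 36.9, 18.8 and 41.0 TPM and then 7.85, 13.7 and 19.2 TPM (limma adjusted p = 0.0514). After median-of-ratios scaling, none of the 19 rose and 3 fell (Tie1, Esam and Myct1). The call of Emcn was lost in all 6 fits without a library, those of Egfl7 and Ptprb in all but the fit without replicate A of E16.5, and that of Myct1 only without replicate A of E18.5.

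Of 12 other genes of sinusoidal endothelium, 11 were tested. Of these 2 rose and 0 fell, again no larger a share than the 26.0% of all genes that rose. The median of the list was 0.77 on the log2 scale, 0.39 after median-of-ratios scaling and 0.50 to 1.10 with 1 library left out. Wnt2, a Wnt ligand of liver endothelium, rose with a log2 fold change of 1.47, from 2.02, 1.65 and 1.33 TPM to 3.82, 6.59 and 9.72 TPM (limma adjusted p = 0.0210). Maf, a transcription factor of sinusoidal cells, rose with 1.18 (limma adjusted p = 0.0388). Ehd3 was the most abundant, with 83.7, 55.0 and 90.2 TPM at E16.5 and 20.3, 60.5 and 52.2 TPM at E18.5 (limma adjusted p = 0.132). Gpr182, a scavenging chemokine receptor, had 23.3, 18.4 and 17.8 TPM and then 15.8, 23.9 and 22.0 TPM (limma adjusted p = 0.884). After median-of-ratios scaling 0 of the 11 passed. The call of Wnt2 was lost without replicate C of E16.5 or replicate B of E18.5, and that of Maf in 5 of the 6 fits without a library.

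Of 10 ligands and partner receptors of Kdr, Flt4 and Tek, 1 passed the threshold, against 31.2% of all genes tested. It was the ligand gene Vegfa. Its log2 fold change was 1.40 (standard error 0.19, limma adjusted p = 0.00890), a rise from 97.7, 106 and 66.7 TPM to 258, 241 and 210 TPM, and kept its call in all 6 fits without a library and after median-of-ratios scaling (0.95, limma adjusted p = 0.0132). The values of Vegfa thus lay apart between the stages while those of its receptor gene Kdr overlapped. Angpt1, the activating ligand of Tek, had 44.3, 33.0 and 66.6 TPM at E16.5 and 25.1, 32.6 and 21.8 TPM at E18.5 (limma adjusted p = 0.0601 as deposited and 0.0406 after median-of-ratios scaling, with a log2 fold change of -0.79 and -1.24). The receptor gene Flt1 had a log2 fold change of 0.91 (limma adjusted p = 0.0775).

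Genes of other vessel types were listed too, 12 in all, of which 10 were tested. Of these 3 rose and 1 fell, against 26.0% and 5.22% of all genes. The rises were those of Pdpn (1.71), a gene of lymphatic vessels and of other cells, Efnb2 (1.14), a gene of arteries, and Nr2f2 (0.87), a gene of veins and mesenchyme. Ephb4, the venous receptor for Efnb2, was the most abundant of this list with 186, 188 and 120 TPM at E16.5 and 232, 253 and 215 TPM at E18.5 (limma adjusted p = 0.0716). The fall was that of Mmrn1, known from lymphatic endothelium and platelets, which had 124, 83.7 and 201 TPM at E16.5 and 2.57, 16.0 and 6.46 TPM at E18.5 (log2 fold change -4.07, limma adjusted p = 0.00900). Mmrn1 kept its call in all 6 fits without a library. Ccl21a, a chemokine gene of lymphatic endothelium, was listed at 0 in all 6 libraries. Bmx and Ccl21a had means under 1 TPM and were not tested. The calls of Efnb2, Nr2f2 and Pdpn were kept in 1, 2 and 3 of the 6 fits without a library. After median-of-ratios scaling the fall of Mmrn1 alone passed.

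**Figure D4:**
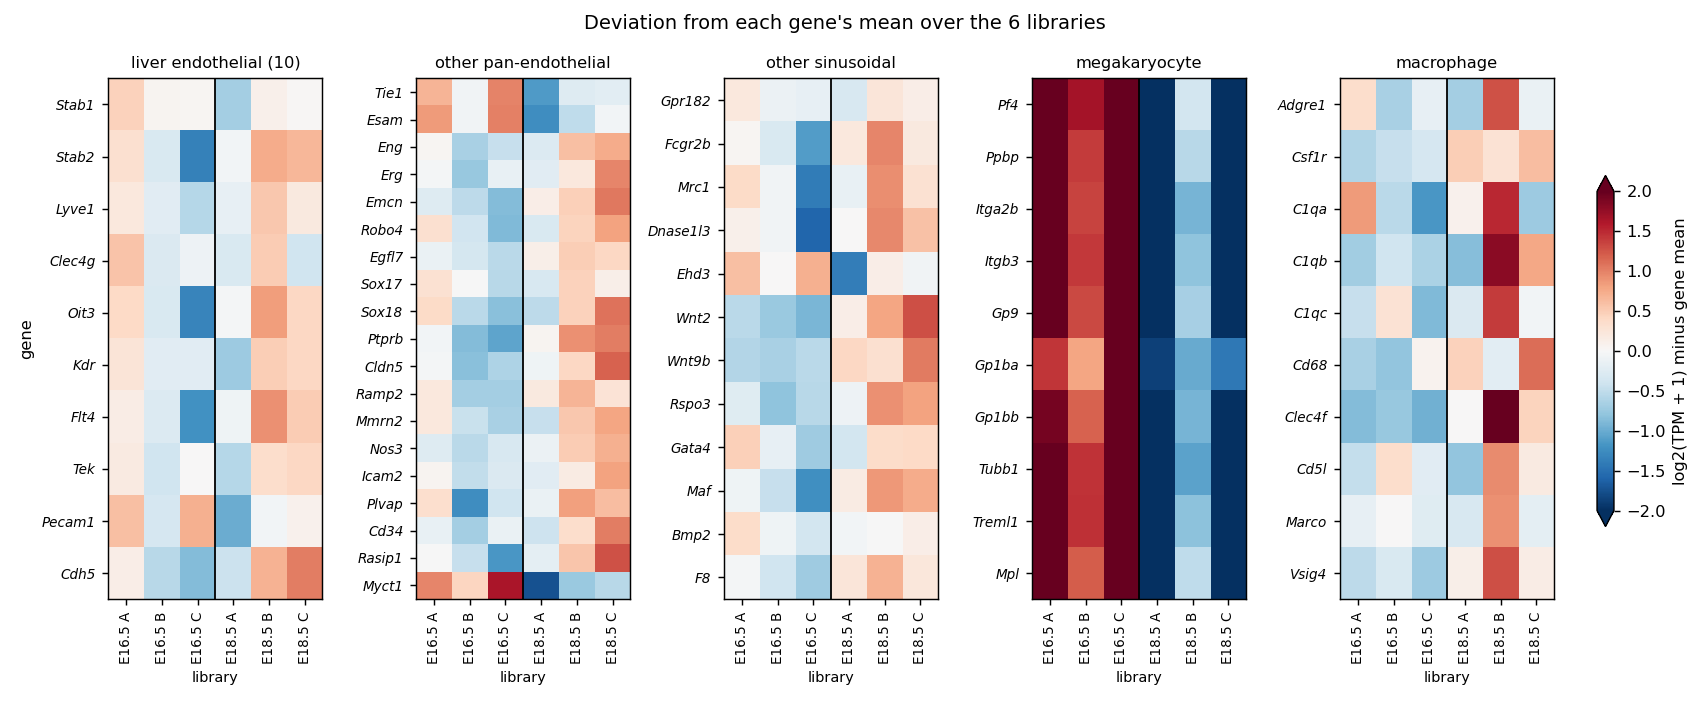
Deviation of log2(TPM + 1) from each gene's mean over the 6 libraries (colour, in log2 units, saturated at 2 and -2), with genes as rows and libraries as columns, for the 10 genes, 2 further endothelial lists and the markers of megakaryocytes and macrophages. Replicate A of E18.5 is pale or blue for the 10 genes, and Pecam1, Tie1, Esam, Myct1 and Ehd3 share with the megakaryocyte genes their highest value in replicate C of E16.5.

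Markers of other cells, some of which carry genes of the 10, also differed between the libraries. All 10 megakaryocyte genes fell (limma adjusted p from 0.00817 to 0.0150), against 5.22% of all genes, and none of them was at 0 in any library. Of the exon sequence of Gp1bb, 92.9% is shared with other genes on the same strand. How reads in shared sequence were counted is not given, so its level is uncertain. The sum of the 10 megakaryocyte genes was 3410 to 9875 TPM at E16.5 and 101 to 787 TPM at E18.5. At E16.5 all 10 of them had the order C, A, B from high to low, which Pecam1 shared. So did 10 genes of the other endothelial and vessel lists, both with lower values at E18.5 (Tie1, Esam, Myct1, Ehd3, Angpt1, Mmrn1 and, by little, Gja4) and with higher ones (Cd34, Wnt9b and Vegfd). The order was not limited to megakaryocyte genes, as the hepatoblast genes Apoa1, Hnf4a and Dlk1 had it too. Among the other 9 genes described here, none had that order. At E18.5 the 10 megakaryocyte genes had the order B, C, A, and Pecam1 had C, B, A. The part of megakaryocyte RNA in the values of Pecam1 was not tested. Of 8 genes of early blood progenitors, some of which also carry Tek, 0 rose and 2 (Gfi1b and Hlf) fell, against 26.0% and 5.22% of all genes. By sign, 4 of the 8 were higher and 4 lower at E18.5, with a median log2 fold change of 0.0028. The sum of the 8 was 57.9 to 79.4 TPM at E16.5 and 29.9 to 46.5 TPM at E18.5. Gfi1b and Hlf had the highest means of the list at E16.5. Gfi1b, with the order of the megakaryocyte genes at both stages, had means of 31.6 and 4.79 TPM, and Hlf 20.1 and 10.2 TPM.

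Macrophages of the liver also carry Lyve1 and Stab1. Of 10 macrophage genes, 8 were tested and 2 rose, no larger a share than the 26.0% of all genes that rose. They were Csf1r (0.93, limma adjusted p = 0.0104) and Clec4f (1.72, limma adjusted p = 0.0472). The sum of the 10 macrophage genes was 39.9 to 43.6 TPM at E16.5 and 69.3 to 106 TPM at E18.5. The call of Clec4f, a gene of Kupffer cells, was lost in all 6 fits without a library, and its highest value was 15.3 TPM in replicate B of E18.5, where 7 of the 10 endothelial genes were highest within that stage. Csf1r and Cd68 were instead lowest of the stage in that library. After median-of-ratios scaling 0 of the macrophage genes passed. Vsig4 was listed at 0 in replicate C of E16.5, and 3 of the 10 macrophage genes had at least 1 TPM in every library. Mesenchymal cells surround the portal vessels and lie along the sinusoids. Of 8 mesenchymal genes 3 rose (Pdgfra, Dcn and Lrat) and 0 fell, against 26.0% and 5.22% of all genes. Pdgfra kept its call in 0, Lrat in 1 and Dcn in 5 of the 6 fits without a library. After median-of-ratios scaling 1 of the 8 mesenchymal genes passed. Their sum was 99.1 to 223 TPM at E16.5 and 225 to 639 TPM at E18.5, and all 8 were lowest in replicate A of the later stage, as 9 of the 10 endothelial genes were. Of the 8 cholangiocyte markers 7 rose, against 26.0% of all genes, and of the 8 hepatoblast markers 5 fell, against 5.22% of all genes. After median-of-ratios scaling these counts were 3 and 4. Without replicate A of E18.5 the counts were 1 and 2, and without replicate B of that stage 2 and 3. Leaving out replicate C of E18.5 gave 4 and 5, and each fit without an E16.5 library gave 6 or 7 and 2. The cholangiocyte sum was lowest in replicate C of E16.5, as were 7 of the 10 endothelial genes within that stage. The part of these cells in the endothelial values was not tested.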

How the data were processed

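The authors trimmed reads with Trimmomatic, aligned them to GRCm38 with HISAT2 (version 2.1.0), assigned them to GENCODE vM15 genes with HTSeq and deposited TPM, which sum to 1000000 in each library. Total RNA was made into stranded libraries, and whether counting used strand is not given in the sources used here. Gene names, places and exon lengths came from GENCODE vM21 on the same build, which held 52403 of 52550 identifiers; promoter windows came from RefSeq. Multiplying TPM by exon length and dividing by what 1 read is worth gave back reads, which were whole within 0.01 for 100% of 180057 nonzero values. Library pairs within a stage differed by a chi-square per degree of freedom of at least 15.1, so none was a copy. The test was limma 3.58.1 in R 4.3.3 (trend) on log2(TPM + 1), a scale that understates changes of low genes. It was also run on simulated data with a set replicate spread, which does not measure its power in these libraries. The genes and lists were chosen with earlier results of these data known. Named genes were the 10, list genes, and the 5 genes of most like pattern, of which 1 is not reported here. Alternatives were another pseudocount, filters, scalings, no trend, a replicate block, voom on recovered reads, and leaving out each library.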

Additional observations from a re-analysis of the deposited data

How the results depend on the processing

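With limma and Benjamini-Hochberg adjustment, 0 of the 10 genes passed the threshold in 13 of the 14 alternatives, and 1 (Stab1, lower) after median-of-ratios scaling. Stab2, Oit3, Flt4 and Cdh5 kept a positive and Pecam1 and Stab1 a negative log2 fold change in all 14 alternatives. Kdr turned to -0.29 (median-of-ratios), -0.25 (quantile normalization) and -0.063 (limma voom), Tek to -0.28, -0.27 and -0.060, and Lyve1 to -0.040 and -0.0087 in the first 2. Without a library, Clec4g ranged from -0.41 to 0.13 (above 0 without replicate A of E16.5, and at 0.00071 and 0.043 without replicates A and C of E18.5), Kdr from -0.084 to 0.52 (-0.044 without replicate C of E18.5) and Tek from -0.040 to 0.45 (-0.031 without replicate B of E16.5, -0.010 without replicate B of E18.5). Clec4g, with a mean under 5 TPM, was not tested at that filter. The number of all genes passing was 7000, against 4282 with no filter on low values, 3862 with median-of-ratios scaling (39.5% higher at E18.5, in place of 83.3%) and 3796 with quantile normalization (50.5% higher), and leaving out a library gave between 1148 (replicate A of E18.5) and 5432; it was 2499 without replicate B of E18.5, 4066 without replicate C and 4235 without replicate A of E16.5. Causes were not tested. Between libraries of the same letter, correlations of deviations from the stage mean were -0.042, 0.081 and 0.14 for A, B and C. Between unlike letters they were -0.15 to 0.084. Whether the letters mark a shared batch was not tested. With the letters as a replicate block 7314 genes passed and none of the 10. Depth limits Clec4g most, at 28 to 135 reads.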
